A study of Mus musculus with 8 samples.

Results

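The non-fibrillar collagens are the collagens that do not themselves build the banded fibrils of connective tissue. Here they were taken as every gene whose symbol has the form of a collagen alpha chain and whose type is not I, II, III, V, XI, XXIV or XXVII, which gave 33 of the 31053 genes counted. All 33 fell into 6 classes: 8 basement membrane chains, 6 beaded filament chains, 3 network chains, 9 FACIT chains, 4 transmembrane chains and 3 chains of other kinds. A gene was tested where it reached at least 1 CPM (counts scaled to the library total) in at least 4 libraries, and 30 of the 33 did so. The levels given below are CPM after TMM normalization between libraries. Col6a4, Col7a1 and Col17a1 did not and are given as levels only.

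The levels were measured in eyecups at postnatal day 11 (P11) by QuantSeq, which sequences the 3′ ends of polyadenylated transcripts. There were 4 libraries from Bbs8-/- mice and 4 from wild-type (Bbs8+/+) littermates, all on a C57/Bl6 background and none treated. Bbs8, listed as Ttc8 in the annotation, encodes a subunit of the BBSome, a complex that moves membrane proteins into and out of primary cilia. The knockout is constitutive, so every tissue of the eye lacked the gene. The eyecup is what was left after muscle, fat, cornea, lens, retina and optic nerve had been taken off, so beside the retinal pigment epithelium (RPE) it holds choroid and sclera. In such bulk tissue fewer cells of a type and less RNA per cell cannot be told apart. The labels call the libraries biological replicates from 4 mice of each genotype, although each library held transcripts of both sexes. The p-values measure the spread between these libraries, and whether that is a spread between mice cannot be told.

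Collagen chains assemble in threes, and the class of a chain follows from what its trimers build. Type IV trimers join end to end into the sheet at the core of every basement membrane. The α1α1α2 trimer is found in nearly all of them, whereas α3α4α5 is restricted to a few, among them those of the kidney filter, the lens capsule and parts of the eye. Under the RPE, type IV collagen lies in the basement membrane of the RPE and in that of the choroidal capillaries, which form the inner and outer faces of Bruch's membrane. Type VI chains form beaded filaments around cells, type VIII and X chains form lattices, and FACIT chains sit on the surface of fibrils and link them to their surroundings.

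The type IV genes lie in head-to-head pairs, and the members that moved most clearly in this class belong to 2 such pairs, so the sequence between their starts is shown here. Windows of 300 bases (250 before to 50 after each start) came from RefSeq on GRCm38.p6 and were found for 27 of the 33 members. Col4a1 and Col4a2 are transcribed away from each other, and their gene models overlap by 22 bases. Capitals mark the 78 bases that their windows share. Col4a4 and Col4a3 are also divergent, with 71 bases between their gene models, marked by capitals in the Col4a4 window.
Col4a1, chr8:11312777-11313076, minus strand: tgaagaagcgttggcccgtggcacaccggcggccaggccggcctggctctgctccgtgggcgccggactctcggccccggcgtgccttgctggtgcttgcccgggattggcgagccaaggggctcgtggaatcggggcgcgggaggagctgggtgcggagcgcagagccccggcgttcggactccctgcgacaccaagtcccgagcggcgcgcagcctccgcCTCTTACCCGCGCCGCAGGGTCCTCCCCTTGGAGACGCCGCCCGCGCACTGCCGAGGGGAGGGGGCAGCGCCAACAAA
Col4a2, chr8:11312555-11312854, plus strand: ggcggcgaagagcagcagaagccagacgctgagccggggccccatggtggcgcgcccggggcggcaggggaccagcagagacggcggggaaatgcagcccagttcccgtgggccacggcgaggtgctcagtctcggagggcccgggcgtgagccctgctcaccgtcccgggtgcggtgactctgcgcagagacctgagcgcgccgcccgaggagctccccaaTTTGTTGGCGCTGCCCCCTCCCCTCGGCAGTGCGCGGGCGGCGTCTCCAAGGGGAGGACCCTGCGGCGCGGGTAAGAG
Col4a4, chr1:82586800-82587099, minus strand: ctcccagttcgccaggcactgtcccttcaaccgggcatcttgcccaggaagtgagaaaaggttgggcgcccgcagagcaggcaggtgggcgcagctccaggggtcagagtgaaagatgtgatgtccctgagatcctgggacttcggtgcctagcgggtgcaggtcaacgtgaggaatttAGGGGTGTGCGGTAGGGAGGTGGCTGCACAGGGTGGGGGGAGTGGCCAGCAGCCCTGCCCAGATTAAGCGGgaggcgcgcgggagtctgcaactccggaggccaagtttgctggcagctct
The windows were searched on both strands for CCAAT, for GGGCGG and for TATAAA, and no match overlapped another. The Col4a1 window held CCAAT 1 time and GGGCGG 1 time. The Col4a2 window held CCAAT 1 time and GGGCGG 3 times, and 1 GGGCGG lies in the shared bases and counts for both genes. The Col4a4 window held none of the 3 motifs, and TATAAA was in none of the 3 windows. Among all 32851 windows of this length 37.4% held CCAAT, 35.7% held GGGCGG and 13.6% held TATAAA, against 10, 17 and 3 of the 30 windows of the members. These matches describe the sequence only.

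Total counts per library ranged from 1636725 to 2884983, so that 3 counts were worth 1.05 to 1.82 CPM. Values under this limit in a library rest on 0 to 2 counts, and the limit covers counting error only. Ttc8 was at 14.7, 19.7, 18.2 and 21.7 CPM in the control libraries and at 9.72, 3.66, 2.30 and 4.21 CPM in the Bbs8-/- libraries. All 4 Bbs8-/- libraries were below all 4 controls (log2 fold change -1.95, SE 0.317, FDR 2.75e-06). RPE markers were present at a summed 16575 to 17595 CPM in control and 17783 to 18088 CPM in Bbs8-/- libraries, and 0 of 8 passed the test. Ttr made most of this sum (10955 CPM on average in control and 11676 CPM in Bbs8-/- libraries). Of the 8 markers 5 had a log2 fold change above 0 and 3 below 0, with Rpe65 at -0.13 (2002 and 1827 CPM on average, FDR 0.0842). Of 8 lens genes 5 were higher in Bbs8-/-, all of them crystallins, and the 8 summed to 44.1 to 59.6 CPM in control and 332 to 368 CPM in Bbs8-/- libraries. The lens fibre genes Mip (8.53 and 10.5 CPM on average), Bfsp1 (7.42 and 14 CPM) and Bfsp2 (7.66 and 9.46 CPM) did not pass. The 6 keratins listed for the surface epithelium summed to 11.8 to 18.7 CPM in controls and to 0 to 0.607 CPM in Bbs8-/- libraries, with Krt14 at 0 in all 8. Across the 13813 genes tested, 309 passed an FDR of 0.05 (2.24%), 157 of them lower (1.14%) and 152 higher (1.10%) in Bbs8-/-, and the median log2 fold change was -0.0041.

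Of the 30 non-fibrillar collagens tested, 5 passed the test, or 16.7% against 2.24% of all genes tested. Lower in Bbs8-/- eyecups were Col16a1, a FACIT chain, Col6a3, a beaded filament chain, and the basement membrane chains Col4a1 and Col4a2. Higher was Col4a3, a chain of the restricted type IV network. The falls were of 15.5% to 21% of the control mean and the rise was of 23.6%, so all 5 changes were small. An unadjusted p under 0.05 was reached by 10 members, where 13% of all genes tested reached it. The genotypes did not overlap for 8 members, 7 lower and 1 higher, where 7.38% of all genes tested showed no overlap. The median log2 fold change of the 30 was -0.12, with 20 below 0 and 10 above, in a range of -1.38 to 1.11. The summed level of the 33 members was 6949 to 7269 CPM in controls and 6704 to 6916 CPM in Bbs8-/- libraries, which is 4.27% lower on average.

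The number of members past the threshold rested on single libraries. It fell from 5 to 2 without control replicate 1, knockout replicate 1 or knockout replicate 4, and to 3 without control replicate 2, control replicate 3 or knockout replicate 3. Col16a1 passed in each of the 17 alternative analyses and Col6a3 in 16 of them, whereas Col4a1 passed in 7, Col4a2 in 8 and Col4a3 in 8. The direction of these 5 genes was the same in all 17. The median of the 30 tested members was -0.21 without knockout replicate 4.

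**Figure D1:**
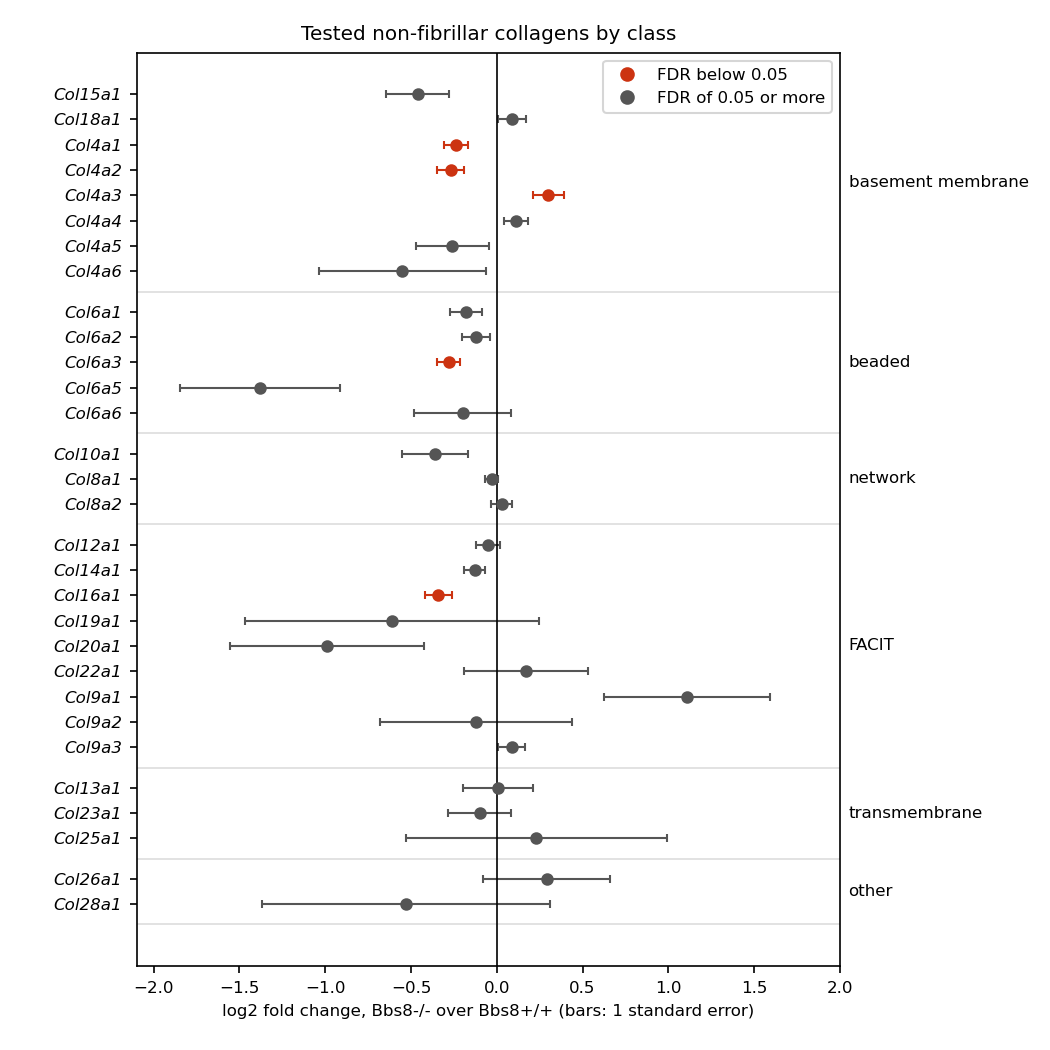
Log2 fold change of Bbs8-/- over Bbs8+/+ libraries (x axis) for each of the 30 tested non-fibrillar collagens (y axis), grouped by class, with bars of 1 standard error and red for an FDR below 0.05. Of the 5 red points, Col4a1, Col4a2, Col6a3 and Col16a1 lie left of 0 and Col4a3 right of it. The chains farthest from 0, Col6a5 at -1.38 and Col9a1 at 1.11, have wide bars and are grey.

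Within the basement membrane class Col4a1 and Col4a2 fell and Col4a3 rose. Col4a1, on chromosome 8, was at 307, 292, 338 and 287 CPM in control libraries and at 270, 260, 251 and 253 CPM in Bbs8-/- libraries. Every Bbs8-/- value lay below every control value, with means of 306 ± 23 and 259 ± 8.27 CPM (SD, n = 4 each). The log2 fold change of Col4a1 was -0.24 (SE 0.0702, FDR 0.0366). Its divergent neighbour Col4a2, the partner chain in the α1α1α2 trimer, was at 241, 219, 226 and 216 CPM in control libraries and at 191, 203, 184 and 167 CPM in Bbs8-/- libraries. Again the genotypes did not overlap, and the log2 fold change of Col4a2 was -0.27 (SE 0.0784, FDR 0.0328). The ratio of Col4a1 to Col4a2 reads was 1.36 ± 0.0956 in control and 1.39 ± 0.10 in Bbs8-/- libraries (SD, n = 4 each), a difference smaller than its spread. Annotated antisense genes at this locus, Gm15418 and Gm15419, had 0 counts in all 8 libraries.

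In the other divergent pair Col4a3 rose. This gene, on chromosome 1 and encoding a chain of the α3α4α5 trimer, was at 117, 133, 134 and 137 CPM in control libraries and at 156, 167, 152 and 168 CPM in Bbs8-/- libraries. The lowest Bbs8-/- library was above the highest control, and the log2 fold change of Col4a3 was 0.30 (SE 0.0887, FDR 0.0395). Col4a4, the second chain of the α3α4α5 trimer, was at 284, 264, 270 and 286 CPM in control libraries and at 323, 270, 285 and 311 CPM in Bbs8-/- libraries. These ranges overlap and Col4a4 did not pass the test (log2 fold change 0.11, SE 0.0699, FDR 0.565). The ratio of Col4a3 to Col4a4 reads was 0.413 to 0.502 in control and 0.484 to 0.617 in Bbs8-/- libraries, so these ranges overlapped too.

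These 3 calls lay close to the threshold. For Col4a1 the FDR was 0.0866 and 0.178 without control replicates 1 and 3, and 0.0594, 0.0754, 0.133 and 0.104 without knockout replicates 1 to 4. For Col4a2 it was 0.149, 0.0632 and 0.0533 without control replicates 1 to 3, and 0.0683, 0.10 and 0.210 without knockout replicates 1, 3 and 4. For Col4a3 it was 0.166 and 0.0707 without control replicates 1 and 2, and 0.0594, 0.106 and 0.137 without knockout replicates 1, 2 and 4. Over the 17 alternatives the log2 fold change ranged from -0.27 to -0.17 for Col4a1, from -0.32 to -0.22 for Col4a2 and from 0.26 to 0.33 for Col4a3.

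Set against each other within a library, the 2 pairs separated the genotypes. This comparison was chosen after the values of the chains had been seen, so it is a description and carries no test. The sum of Col4a1 and Col4a2 was 548, 511, 564 and 503 CPM in control libraries and 461, 463, 435 and 420 CPM in Bbs8-/- libraries. The sum of Col4a3 and Col4a4 was 401, 397, 404 and 422 CPM in control libraries and 479, 437, 438 and 479 CPM in Bbs8-/- libraries. Dividing the first sum by the second gave 1.37, 1.29, 1.40 and 1.19 in controls and 0.963, 1.06, 0.995 and 0.878 in Bbs8-/- libraries. The means of this ratio were 1.31 ± 0.0914 and 0.974 ± 0.0756 (SD, n = 4 each), with no overlap. A ratio within a library does not depend on how the library was scaled.

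**Figure D2:**
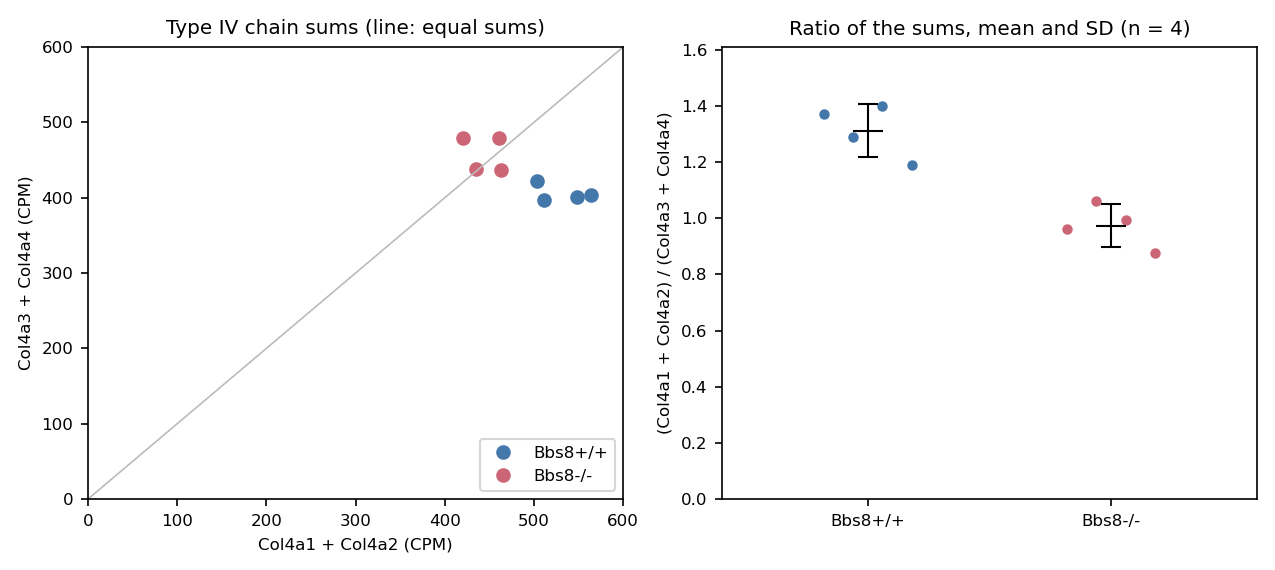
Left, summed level of Col4a1 and Col4a2 (x axis, CPM) against that of Col4a3 and Col4a4 (y axis, CPM), 1 point per library, with a grey line where both are equal. Right, the ratio of the first sum to the second in each library, with black bars for mean and SD (n = 4). Control ratios lie between 1.19 and 1.40 and Bbs8-/- ratios between 0.878 and 1.06.

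The remaining type IV chains are on the X chromosome and gave few reads. Col4a5, which completes the α3α4α5 trimer, was at 21.7 to 25.2 CPM in control and 15.7 to 27.1 CPM in Bbs8-/- libraries (log2 fold change -0.26, SE 0.212, FDR 0.673). Col4a6, which joins α5 in the basement membranes of smooth muscle and skin, was at 2.81 to 7.34 and 2.61 to 4.86 CPM (FDR 0.701). Neither passed the test. Beside these X-linked values, the labels give no sex. Xist and Y-linked transcripts were both read in each of the 8 libraries, so reads of both sexes were present in every library, which goes against the study's methods, where 1 animal makes 1 replicate. The summed level of 4 Y-linked genes was 59.1 to 65.0 CPM in control and 108 to 120 CPM in Bbs8-/- libraries, with Xist at 641 to 747 and 571 to 626 CPM. The part of this imbalance in any of the results was not tested.

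Col15a1 and Col18a1 are multiplexins, basement membrane collagens that carry sugar chains, and Col18a1 is the source of endostatin. Col15a1 was at 32.4, 41.3, 36.5 and 30.8 CPM in control libraries and at 18.2, 29.8, 24.3 and 29.0 CPM in Bbs8-/- libraries. The genotypes did not overlap, but with a log2 fold change of -0.46 (SE 0.183) Col15a1 did not pass the test (unadjusted p = 0.0125, FDR 0.211). Col18a1 was at 157 to 202 CPM in control and 173 to 193 CPM in Bbs8-/- libraries (log2 fold change 0.088, FDR 0.738). Whether reads were counted by strand is not known, and Slc19a1, which overlaps Col18a1 on the opposite strand, was at 35.8 to 44.4 CPM in control and 47.7 to 56.5 CPM in Bbs8-/- libraries.

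As a class, 3 of the 8 basement membrane chains passed the test, 2 lower and 1 higher, and their median log2 fold change was -0.25. The summed level was 1138 to 1208 CPM in control and 1092 to 1163 CPM in Bbs8-/- libraries, overlapping ranges, since the falls and the rise partly cancel in the sum. Endothelial, mural and lens cells have basement membranes of their own. Of 8 endothelial markers 0 passed the test, with summed levels of 755 to 789 and 721 to 814 CPM. Of 8 mural cell markers 2 were lower in Bbs8-/- (Rgs5 and Notch3), with sums of 1269 to 1328 and 1125 to 1201 CPM. Without Rgs5 the other 7 summed to 551 to 625 and 545 to 606 CPM, overlapping ranges. Of the 6 that did not pass, Acta2, Tagln and Des had log2 fold changes above 0 (0.10, 0.19 and 0.50) and Pdgfrb, Kcnj8 and Myh11 below 0 (-0.35, -0.45 and -0.073). The lens capsule is rich in type IV collagen, and of the lens genes the 5 crystallins were higher and Mip, Bfsp1 and Bfsp2 did not pass, as given above. No marker of these 3 lists was at 0 in every library. The part of these cells in the type IV values was not tested.

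**Figure D3:**
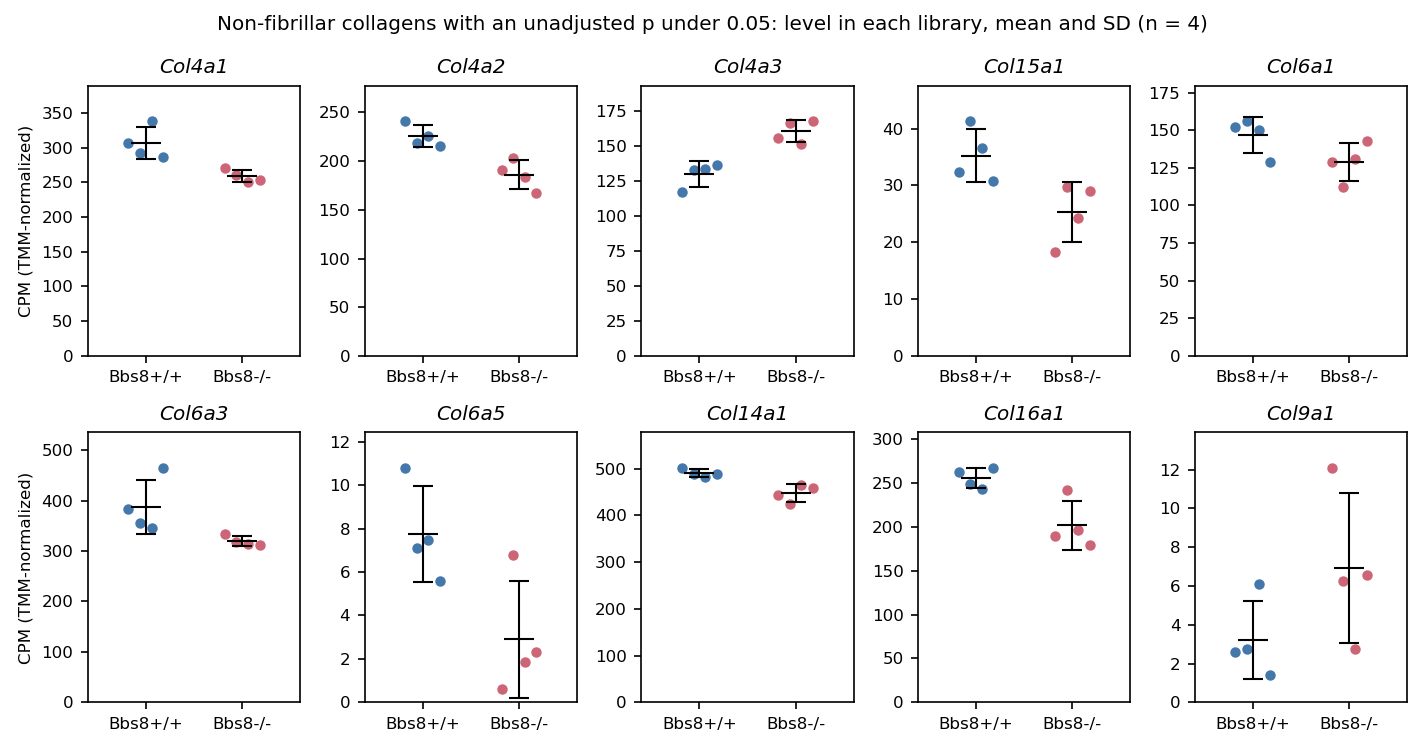
Level in CPM (y axis, from 0) of the 10 non-fibrillar collagens with an unadjusted p under 0.05, 1 point per library, Bbs8+/+ in blue and Bbs8-/- in red, with black bars for mean and SD (n = 4). Col4a3 and Col9a1 are higher in Bbs8-/- and the others lower, and the genotypes overlap for Col6a1, Col6a5 and Col9a1.

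Among the beaded filament chains all 5 tested had a log2 fold change below 0, and 1 passed the test. The main type VI trimer is made of α1, α2 and α3. Col6a3, its largest chain, was at 383, 356, 346 and 465 CPM in control libraries and at 333, 318, 314 and 312 CPM in Bbs8-/- libraries. All Bbs8-/- values were below all control values, although control replicate 4 stood above the other controls. The log2 fold change of Col6a3 was -0.28 (SE 0.0681, FDR 0.00560). Without control replicate 4 it was -0.18 and the FDR was 0.225, the only 1 of the 17 alternatives in which Col6a3 did not pass.

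Col6a1 and Col6a2, neighbours on chromosome 10, encode the other chains of this trimer. Col6a1 was at 152, 156, 150 and 129 CPM in control libraries and at 129, 112, 131 and 143 CPM in Bbs8-/- libraries (log2 fold change -0.18, SE 0.0920, unadjusted p = 0.0477, FDR 0.381). Col6a2 was at 189, 231, 235 and 170 CPM in control libraries and at 197, 190, 180 and 191 CPM in Bbs8-/- libraries (log2 fold change -0.12, SE 0.0822, FDR 0.589), with -0.20 without control replicate 4 and -0.051 without control replicate 3. The genotypes overlapped for both and neither passed the test. Control replicate 4 was the lowest control for Col6a1 and Col6a2 and the highest for Col6a3.

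Col6a4, Col6a5 and Col6a6 encode chains that can stand in for α3. Col6a4 was at 0 counts in 7 libraries and at 2 counts in knockout replicate 4. Col6a5 was at 10.8, 7.09, 7.48 and 5.59 CPM in control libraries and at 0.607, 6.80, 1.84 and 2.34 CPM in Bbs8-/- libraries, which were 25, 18, 16 and 16 counts against 1, 13, 4 and 5. Knockout replicate 2 lay within the control range, and the other 3 lay below it. The log2 fold change of Col6a5 was -1.38 (SE 0.466, unadjusted p = 0.00359, FDR 0.106), and without knockout replicate 2 it was -2.17 and passed the test (FDR 0.0147). Col6a6 was at 10.8 to 14.7 and 8.37 to 13.4 CPM (FDR 0.843).

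Summed over the 6 type VI chains, the level was 749, 763, 750 and 780 CPM in control libraries and 673, 635, 638 and 662 CPM in Bbs8-/- libraries. The means were 761 ± 14.5 and 652 ± 18.5 CPM (SD, n = 4 each), 14.3% lower in Bbs8-/-, with no overlap. The control libraries spread less in this sum than in Col6a3 (SD 54.0 CPM) or Col6a2 (SD 32.1 CPM) alone.

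None of the 3 network chains passed the test. Col8a1 and Col8a2 encode type VIII collagen, which forms the hexagonal lattice of Descemet's membrane and is also made by vascular and scleral cells. Col8a1 drew more reads than any other member, at 3446, 3267, 3187 and 3370 CPM in control libraries and at 3328, 3204, 3218 and 3260 CPM in Bbs8-/- libraries. The ranges overlapped, with a log2 fold change of -0.029 (SE 0.0374, FDR 0.825). Col8a2 was at 532, 469, 520 and 465 CPM in control libraries and at 510, 438, 554 and 520 CPM in Bbs8-/- libraries (log2 fold change 0.028, SE 0.0609, FDR 0.906). Its sign turned without control replicate 4 (-0.0014) or knockout replicate 3 (-0.019). The standard errors of both genes are among the smallest of the 30. Col10a1, the collagen of hypertrophic cartilage, was at 28 to 33.6 CPM in control and 15.4 to 32.4 CPM in Bbs8-/- libraries (log2 fold change -0.36, unadjusted p = 0.0679, FDR 0.440).

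Of the 9 FACIT chains 1 passed the test. Col16a1, which is made by fibroblasts and smooth muscle cells and associates with fibrils and microfibrils, was at 261.5, 248.5, 243.3 and 267.5 CPM in control libraries and at 188.9, 242.1, 196.1 and 179.1 CPM in Bbs8-/- libraries. Knockout replicate 2 was just below the lowest control, and the other 3 were well below. The means of Col16a1 were 255 ± 11.2 and 202 ± 27.9 CPM (SD, n = 4 each). The log2 fold change was -0.34 (SE 0.0771, FDR 0.00209), the smallest FDR of any member, and over the 17 alternatives it ranged from -0.44 to -0.29 with an FDR of at most 0.0410.

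Col14a1 and Col12a1 coat type I collagen fibrils. Col14a1 was at 502, 488, 482 and 488 CPM in control libraries and at 444, 424, 466 and 459 CPM in Bbs8-/- libraries. The genotypes did not overlap, but the difference was only 8.59% of the control mean and Col14a1 did not pass the test (log2 fold change -0.13, SE 0.0596, unadjusted p = 0.0326, FDR 0.328). Col12a1 was at 306, 271, 307 and 291 CPM in control libraries and at 280, 289, 279 and 283 CPM in Bbs8-/- libraries (log2 fold change -0.052, SE 0.0691, FDR 0.830). The Bbs8-/- range of Col12a1 lay inside the control range.

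Of the 11 fibrillar collagens 4 passed the test, all lower (Col1a1, Col1a2, Col3a1 and Col5a1). That is 36.4%, against 2.24% of all genes tested, and the median log2 fold change of the 11 was -0.21. The other 7 did not pass, and 2 of the 11, Col2a1 and Col24a1, had a log2 fold change above 0 (1.39 and 0.44). The summed level of the 11 was 30199 to 31385 CPM in control and 22005 to 23301 CPM in Bbs8-/- libraries, 26.7% lower on average. Most of this sum and of its fall came from Col1a1 (11717 and 8752 CPM on average) and Col1a2 (15122 and 10311 CPM). The summed FACIT level was 1216 to 1280 CPM in control and 1117 to 1184 CPM in Bbs8-/- libraries, 7.45% lower. Of 8 fibroblast markers the 3 that passed were the type I and III collagens themselves, and the other 5, Dcn, Lum, Pdgfra, Fmod and Ogn, did not pass. Summed, the 8 were at 34841 to 36657 CPM in control and 27465 to 28644 CPM in Bbs8-/- libraries, a difference carried by the 3 collagens. The other 5 summed to 6502 to 6946 CPM in control and 6943 to 7324 CPM in Bbs8-/- libraries, most of it Dcn (5894 and 6261 CPM on average). Their log2 fold changes were 0.087 for Dcn, 0.12 for Lum, 0.015 for Fmod, -0.093 for Ogn and -0.25 for Pdgfra. None of the 8 was at 0 in every library. Of 8 melanocyte markers 6 passed the test, all lower (75.0%), with sums of 14136 to 14781 and 11733 to 12246 CPM. RPE cells express several of these genes too. The part of scleral and choroidal stroma in the values of Col16a1, Col6a3 and Col14a1 was not tested.

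Type IX collagen coats type II fibrils in cartilage and vitreous and is made of the chains of Col9a1, Col9a2 and Col9a3. Col9a1 was at 2.59, 2.76, 6.08 and 1.40 CPM in control libraries and at 12.1, 6.28, 2.76 and 6.55 CPM in Bbs8-/- libraries, or 4 to 20 counts. The ranges overlapped, since knockout replicate 3 was level with control replicate 2 and control replicate 3 was close to knockout replicate 2. The log2 fold change of Col9a1 was 1.11 (SE 0.484, unadjusted p = 0.0236, FDR 0.283), and 0.72 without knockout replicate 1. Col9a2 was at 1.58 to 5.59 and 0.919 to 5.14 CPM (FDR 0.962). Col9a3 was at 178 to 209 CPM in control and 171 to 213 CPM in Bbs8-/- libraries (log2 fold change 0.086, FDR 0.734), and the 3 chains thus gave very unequal numbers of reads. Of 7 chondrocyte markers 4 could be tested and 1 of them, Sox9, was lower. Col2a1, whose fibrils type IX collagen coats, was at 3.45, 1.58, 3.27 and 4.20 CPM in control libraries and at 10.3, 8.37, 7.81 and 7.02 CPM in Bbs8-/- libraries. It was higher in every Bbs8-/- library but did not pass the test (log2 fold change 1.39, SE 0.439, unadjusted p = 0.00187, FDR 0.0686). The sums of the 7 markers were 219 to 250 and 182 to 194 CPM, nearly all of it Sox9, and Matn1 was at 0 in all 8 libraries.

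The other FACIT chains gave few reads. Col20a1 was at 3.27 to 6.64 CPM in control and 1.82 to 2.76 CPM in Bbs8-/- libraries without overlap, from 3 to 19 counts (log2 fold change -0.99, SE 0.563, unadjusted p = 0.0813, FDR 0.474). Col22a1, found at tissue junctions such as that of muscle and tendon, was at 5.15 to 8.04 and 6.28 to 10.3 CPM (FDR 0.904). Col19a1 was at 0 to 2.80 and 0.523 to 1.38 CPM, or at most 8 counts (FDR 0.840). None of these 3 chains passed the test.

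**Figure D4:**
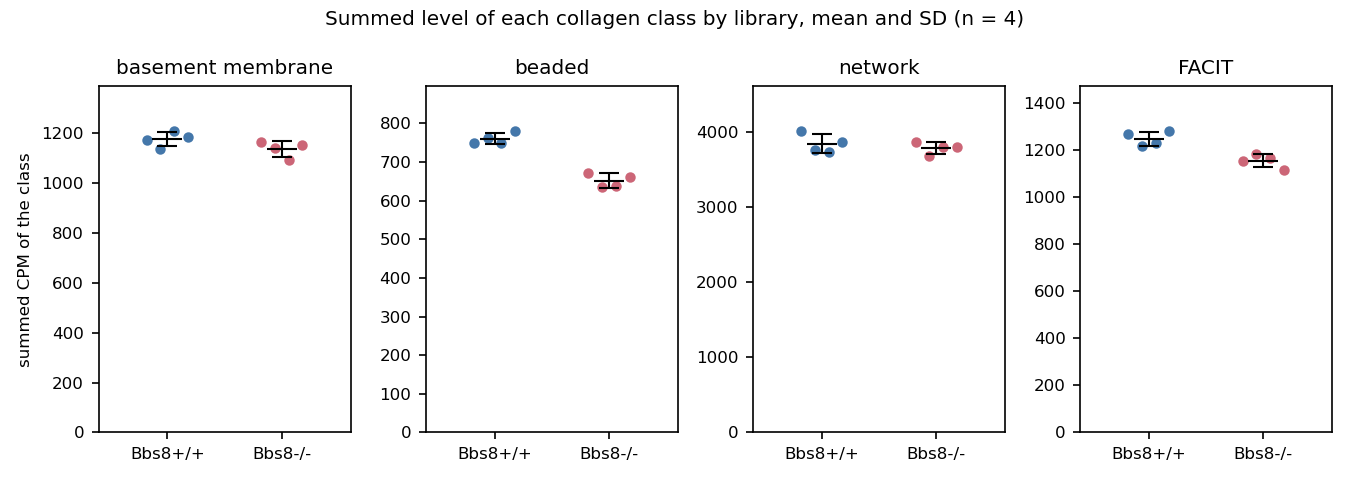
Summed CPM (y axis, from 0) of the basement membrane, beaded, network and FACIT classes in each library, Bbs8+/+ in blue and Bbs8-/- in red, with black bars for mean and SD (n = 4). The genotypes do not overlap in the beaded sum (749 to 780 against 635 to 673 CPM) or the FACIT sum (1216 to 1280 against 1117 to 1184 CPM) and overlap in the other 2.

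None of the transmembrane chains passed the test. Col13a1, which acts in cell adhesion and at the neuromuscular junction, was at 23.7, 31.1, 22 and 21 CPM in control libraries and at 32.8, 26.7, 19.3 and 20.6 CPM in Bbs8-/- libraries (log2 fold change 0.0044, SE 0.204, FDR 0.996). Col23a1 was at 32.4, 26.8, 31.3 and 30.1 CPM in control libraries and at 25.5, 29.3, 24.3 and 32.7 CPM in Bbs8-/- libraries (log2 fold change -0.10, SE 0.184, FDR 0.883). The ranges of both genes overlapped widely. Col25a1, a neuronal transmembrane collagen, was at 0.468 to 3.02 and 0.459 to 3.74 CPM (FDR 0.943). Col17a1, a hemidesmosome component of surface epithelia, had at most 5 counts in a library.

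The last 3 chains fit no larger class. Col26a1 was at 7.77, 4.73, 7.95 and 5.59 CPM in control libraries and at 5.47, 7.32, 6.89 and 11.7 CPM in Bbs8-/- libraries (log2 fold change 0.29, SE 0.369, FDR 0.817), and its log2 fold change was 0.17 without control replicate 2 and 0.031 without knockout replicate 4. Col28a1, a collagen of the basement membranes around peripheral glia, was at 1.29, 2.36, 2.81 and 0.350 CPM in control libraries and at 0, 2.09, 0.919 and 1.40 CPM in Bbs8-/- libraries (log2 fold change -0.53, SE 0.840, FDR 0.864). With 1 library left out, the log2 fold change of Col28a1 ranged from -0.96 (without knockout replicate 2) to -0.18 (without knockout replicate 1). Col7a1, which forms the anchoring fibrils of skin and cornea, had 0 to 5 counts per library. Neither tested chain passed the test.

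Laminins, nidogens, perlecan and other proteins share the basement membrane with these collagens. Of 25 such genes 23 were tested, and 3 passed, 2 lower and 1 higher (13% of the 23, against 2.24% of all genes tested). Dag1, which encodes the laminin receptor dystroglycan, was at 201, 195, 211 and 215 CPM in control libraries and at 143, 186, 156 and 166 CPM in Bbs8-/- libraries (log2 fold change -0.33, SE 0.0823, FDR 0.00775). Smoc1, a calcium-binding relative of Sparc, was at 126, 107, 108 and 112 CPM in control libraries and at 92.9, 77.4, 86.8 and 86.5 CPM in Bbs8-/- libraries (log2 fold change -0.40, SE 0.105, FDR 0.0159). Both genes were lower in every Bbs8-/- library than in any control. Sparc, which binds type IV and fibrillar collagens, was at 10529, 10351, 10881 and 10154 CPM in control libraries and at 11435, 11402, 10956 and 12174 CPM in Bbs8-/- libraries (log2 fold change 0.13, SE 0.0294, FDR 0.00148). Over the 17 alternatives each kept its direction. Dag1 did not pass without knockout replicate 1 (FDR 0.0961), and Smoc1 did not pass without control replicate 1 (FDR 0.107) or knockout replicate 2 (FDR 0.0891) or with thinned counts (FDR 0.0749). Sparc did not pass by the likelihood ratio test (FDR 0.225). The median of the 23 was -0.11, with 16 of 23 below 0 against 6979 of 13813 over all genes tested, and 10 had an unadjusted p under 0.05 against 13% of all genes.

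Of 12 collagen receptor genes all were tested, all 12 had a log2 fold change below 0 (-1.0 to -0.0046, median -0.12), and 1 passed (8.33%). Over all genes tested 6979 of 13813 were below 0 and 2.24% passed. Adgrg6 encodes an adhesion G protein-coupled receptor that binds type IV collagen. It was at 12.9, 26, 19.6 and 10.1 CPM in control libraries and at 9.72, 9.41, 5.97 and 9.35 CPM in Bbs8-/- libraries. The Bbs8-/- values were below all controls, by a narrow margin for control replicate 4, and the log2 fold change of Adgrg6 was -1.0 (SE 0.287, FDR 0.0358). The call was lost in 8 of the 17 alternatives. Without control replicates 2 and 3 the FDR of Adgrg6 was 0.351 and 0.0975, and without knockout replicates 1 to 4 it was 0.0666, 0.0620, 0.176 and 0.0690.

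**Figure D5:**
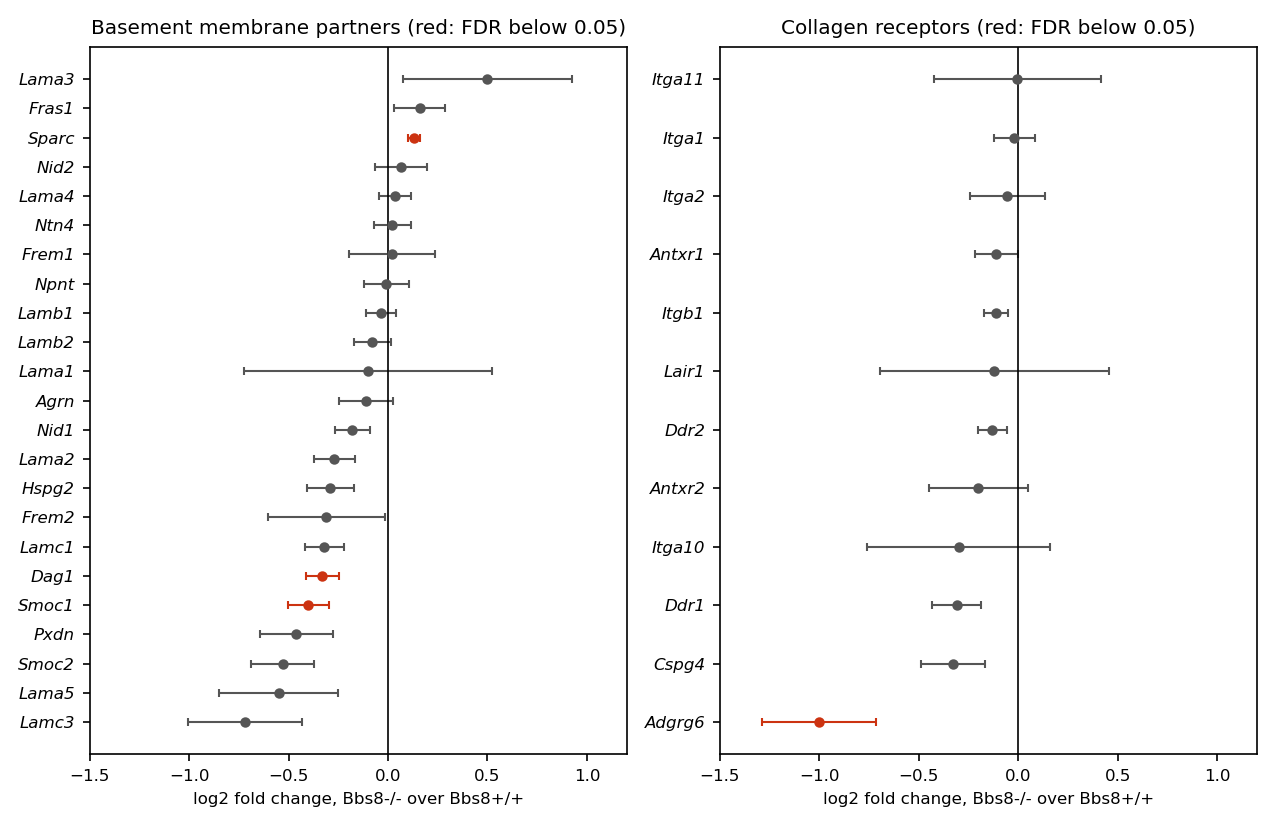
Log2 fold change of Bbs8-/- over Bbs8+/+ libraries (x axis) for 23 basement membrane partners (left) and 12 collagen receptors (right), with bars of 1 standard error and red for an FDR below 0.05. Sparc at 0.13, Dag1 at -0.33, Smoc1 at -0.40 and Adgrg6 at -1.0 are red, and no receptor lies right of 0.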

How the data were processed

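Eyecup RNA (30 ng a library) of Bbs8+/+ and Bbs8-/- mice at P11 was made into 4 QuantSeq 3′ libraries per genotype and read single-end. The authors trimmed the reads with BBDuk, aligned them with STAR to mm10 and counted uniquely aligned reads per gene with htseq-count. The deposited values are these raw counts, 1 file per library. The strand setting was not given in the sources used here.

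Symbols and 1-based positions came from the GENCODE M21 annotation of mm10 and matched 31011 of 31053 identifiers. Promoter windows came from RefSeq on GRCm38.p6. Genes that reached 1 CPM in 4 or more libraries were fitted with edgeR 4.0.16 in R 4.3.3 (TMM normalization, quasi-likelihood F test, genotype as the only factor, two-sided). FDR values are Benjamini-Hochberg adjusted over all 13813 genes tested, with a threshold of 0.05. CPM values are TMM-normalized, except in the filter, which used library totals. The SE of a log2 fold change is its absolute value over the square root of F. CPM of 3′ reads was compared between genotypes, not between genes. Percent differences are of the genotype means. The procedure was tested on simulated counts.

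No pair of files was identical, and within-genotype pairs differed beyond counting noise (mean chi-square per gene 1.91 to 3.23 over 12 pairs). That spread cannot show whether the libraries of a genotype came from separate animals or from shared material. The members, classes and other lists were chosen with earlier results of these data known. Values in every library are given for Ttc8, for members past the threshold or with an unadjusted p under 0.05, and for the 2 members of each class with the highest mean CPM. Of the partner and receptor lists, the genes past the threshold are named. Col20a1, the ranges of the other members, the type IV sums and the overlapping, Y-linked and marker genes were added for completeness outside that rule. The 17 alternatives were RLE factors, library totals, 2 other filters, the DESeq2 1.42.0 Wald test, the likelihood ratio test, the replicate number as a block, each library left out in turn, counts thinned to the smallest total, and the removal of Gm42418 and mitochondrial genes. Some marker genes examined are not reported here.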

Additional observations from a re-analysis of the deposited data

Results flagged for a closer look

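Among 72 groups of 4 values (the tested members and the class sums, by genotype), 2 held a library far from the other 3, and chance alone would give about 3.60. Col9a3 was at 170.7 CPM in knockout replicate 4, where the other 3 Bbs8-/- libraries were at 210.2 to 212.7 CPM. The sum of the transmembrane class was 45.01 CPM in knockout replicate 3, where the others were at 57.99 to 60.14 CPM. No cause was tested for either value.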

How the results depend on the processing

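The number of genes past FDR 0.05 stayed within 1.5 times its value of 309 in all 17 alternatives (226 to 334). The number of non-fibrillar collagens past it, 5, was 3 by the DESeq2 Wald test, 2 by the likelihood ratio test, 3 with counts thinned to the smallest total and 2 to 4 with 1 library left out. With the replicate number as a block it was 2 (Col16a1 and Col6a3), with 263 genes in all. Same-numbered libraries did not deviate together (correlations of -0.0773 to 0.00503 over 4916 genes). This cannot exclude a pairing by number, because noise between libraries would also bring these correlations near 0. The median of the FACIT chains was 0.021 with edgeR's filterByExpr, which kept 6 of the 9, and -0.14 to -0.03 with 1 library left out. With 1 library left out the median of all tested members was -0.21 to -0.12 and that of the 3 transmembrane chains -0.19 to 0.11. Values near 0 changed sign: Col13a1 was at -0.0043 with library totals, -0.032 with thinned counts and -0.14 to 0.15 with 1 library left out, and Col8a2 was at -0.019 to 0.094. Where no count of genes or libraries shows it, the cause was not tested. Of 560 values over all alternatives, 494 stayed on the same side of 0 and of the threshold or within their spread.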
